A study of Mus musculus with 6 samples.

Results

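This report follows 10 genes of dietary lipid absorption and lipoprotein assembly in the colon of Gm31629-/- and WT mice with colitis. They were chosen by name and are the apolipoprotein genes Apoa1, Apoa4, Apob, Apoc3 and Apoe, the transfer protein gene Mttp, the fatty acid binding protein genes Fabp1 and Fabp2, and the triglyceride synthesis genes Dgat1 and Dgat2. All 10 were found by symbol among the 27546 genes of the deposited table. RNA-Seq was carried out on 3 Gm31629-/- mice, which carry a deletion at the locus of the long noncoding RNA Gm31629 on chromosome 1, and on 3 WT littermates, with 1 library per mouse. Both groups were C57BL/6 mice 8 weeks of age that drank 3% DSS (dextran sulfate sodium, which damages the lining of the colon) for 7 days and were killed on day 8. The series holds no untreated mice, so each comparison is between genotypes under injury. The design text names distal colon and the sample labels name colon. The methods speak of RNA pooled from the mice of a genotype, whereas the table has a column per mouse. The Gm31629-/- columns 1 to 3 differed in the female transcript Xist (0.00606, 12.4 and 10.6 FPKM). Whether the columns are separate extractions was not tested.

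Absorptive cells of the intestine take up fatty acids and monoglycerides, bind them to small cytosolic carriers such as FABP1 and FABP2, and join them again into triglycerides, a step that DGAT1 and DGAT2 finish. The transfer protein MTTP loads this lipid onto apolipoprotein B to form chylomicrons, which carry apolipoproteins A-I, A-IV and C-III into the lymph. This route is a specialty of the small intestine and is weak in the colon. Apolipoprotein E is different in origin, since macrophages and other cells of connective tissue make much of it and use it to export cholesterol and to mark lipoproteins for uptake.

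The genes lie in several parts of the genome (GRCm38 coordinates from GENCODE M21). Apoe (ENSMUSG00000002985) spans chromosome 7 from 19696109 to 19699188 on the minus strand, at one end of a cluster of 4 apolipoprotein genes with Apoc1, Apoc4 and Apoc2 that covers 27.6 kb. Apoa1, Apoc3 and Apoa4 lie with Apoa5 in a cluster of 43.3 kb on chromosome 9, from 46228580 to 46271919. Fabp2 (ENSMUSG00000023057) is on chromosome 3 from 122895072 to 122899506, and Fabp1 (ENSMUSG00000054422) on chromosome 6 from 71199827 to 71205023. Apob (ENSMUSG00000020609) is on chromosome 12 from 7977648 to 8016835.

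The promoters of 4 members are shown because these genes behaved in 4 ways, namely higher (Apoe), lower (Fabp2), uneven among Gm31629-/- mice (Apob), and near 0 in all libraries (Fabp1). RefSeq promoters (GRCm38.p6) were matched for 7 of the 10 genes, and each is 300 bases, 250 before and 50 after an annotated start. Capitals mark matches on either strand to the motifs searched. These were the TATA box, spelled TATAAA, and the half-site of nuclear receptors, spelled AGGTCA. Sites of intestinal factors were TTTATG for CDX proteins, AGATAA for GATA proteins and CAAAGTCCA for HNF4. The site of AP-1, a factor of stress and growth signals, was TGACTCA.
Apoe, chr7:19699139-19699438, minus strand: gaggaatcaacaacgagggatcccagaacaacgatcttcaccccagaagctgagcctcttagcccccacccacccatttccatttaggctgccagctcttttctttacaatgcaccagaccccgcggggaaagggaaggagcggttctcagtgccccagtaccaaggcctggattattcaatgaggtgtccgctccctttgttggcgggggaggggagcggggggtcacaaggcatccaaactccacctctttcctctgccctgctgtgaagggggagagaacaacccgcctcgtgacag
Fabp2, chr3:122894822-122895121, plus strand: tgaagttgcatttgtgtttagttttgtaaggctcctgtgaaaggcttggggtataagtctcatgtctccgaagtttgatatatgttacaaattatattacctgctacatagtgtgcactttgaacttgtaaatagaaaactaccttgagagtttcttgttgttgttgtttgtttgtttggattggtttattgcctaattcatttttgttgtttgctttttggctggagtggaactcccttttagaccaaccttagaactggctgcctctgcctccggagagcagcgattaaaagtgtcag
Apob, chr12:7977427-7977726, plus strand: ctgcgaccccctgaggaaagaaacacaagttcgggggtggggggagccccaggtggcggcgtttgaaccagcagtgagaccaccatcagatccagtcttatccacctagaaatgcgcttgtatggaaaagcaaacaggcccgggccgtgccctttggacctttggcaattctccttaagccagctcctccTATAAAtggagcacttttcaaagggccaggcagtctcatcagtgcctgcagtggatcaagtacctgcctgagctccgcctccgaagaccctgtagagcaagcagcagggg
Fabp1, chr6:71199629-71199928, plus strand: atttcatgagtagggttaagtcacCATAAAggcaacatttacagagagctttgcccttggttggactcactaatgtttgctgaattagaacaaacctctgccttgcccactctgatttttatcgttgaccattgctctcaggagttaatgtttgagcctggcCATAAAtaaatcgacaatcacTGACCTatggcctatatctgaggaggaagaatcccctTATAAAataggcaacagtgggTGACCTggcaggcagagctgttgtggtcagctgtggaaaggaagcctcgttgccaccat

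The Fabp1 promoter held a TATA box starting 30 bases before the start, and on the opposite strand matches to TTTATG at positions -226 and -88 and to AGGTCA at -67 and -9. The Apob promoter held TATAAA at -60. The Fabp2 promoter and that of the outermost of 3 Apoe starts held none of these letters, while an inner Apoe start had TATAAA at -96 and, on the opposite strand, at -100. Over all 32851 promoters of the same length, 13.6% held TATAAA, 16.3% AGGTCA, 11.9% TTTATG, 11.2% AGATAA, 5.2% TGACTCA and 0.475% CAAAGTCCA. A match describes letters and was not tested as a binding site.

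Expression is given as FPKM, fragments corrected for the length of the gene and the depth sequenced, which allows levels to be compared between genes. The size of 1 fragment gave depths of 18005954 to 18795144 mapped fragments per library. Genes were compared with limma on log2(FPKM + 1) over 14657 genes whose mean FPKM reached 0.5, with Benjamini-Hochberg adjustment over all of them. A gene was called at an adjusted p under 0.05 and an absolute log2 fold change above 1, and fold changes on this scale understate those of low genes. The median log2 fold change of all tested genes was 0.15. Exact permutation of 3 against 3 mice cannot give a p below 0.10, so no such test is quoted for single genes.

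Several libraries stood apart before any member was compared. Y-linked transcripts (4 genes) were found in 1 of 6 libraries, that of Gm31629-/- mouse 1, and Xist in the other 5, whereas the methods describe male mice. The library of Gm31629-/- mouse 3 held pancreatic acinar transcripts, with Ctrb1 at 1080 FPKM against at most 0.24 FPKM in the other 5. Smooth muscle markers summed to 1604 to 2618 FPKM in Gm31629-/- mice and 28.3 to 54.3 FPKM in WT mice. Called higher were 11 of 12, against 18.4% of all tested genes. Of the 12, 3 had a WT mean under 0.5 FPKM and passed the filter through Gm31629-/- mice, and 2 of these were called higher. Markers of several cell types thus differed along with genotype, and in bulk tissue fewer cells of a type and less RNA per cell cannot be told apart.

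Of the 10 genes, 7 passed the filter on low values, and 2 of these were called. Apoe was called higher, as were 18.4% of all tested genes, and Fabp2 was called lower, as were 4.64%. These were also the 2 members whose groups did not overlap, 1 above and 1 below WT, where 36.3% of tested genes lay wholly above and 21.5% wholly below. Apoa1 passed the filter through its values in Gm31629-/- mice alone (WT mean 0.364 FPKM), so its place among the tested genes depends on its own result.

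**Figure D1:**
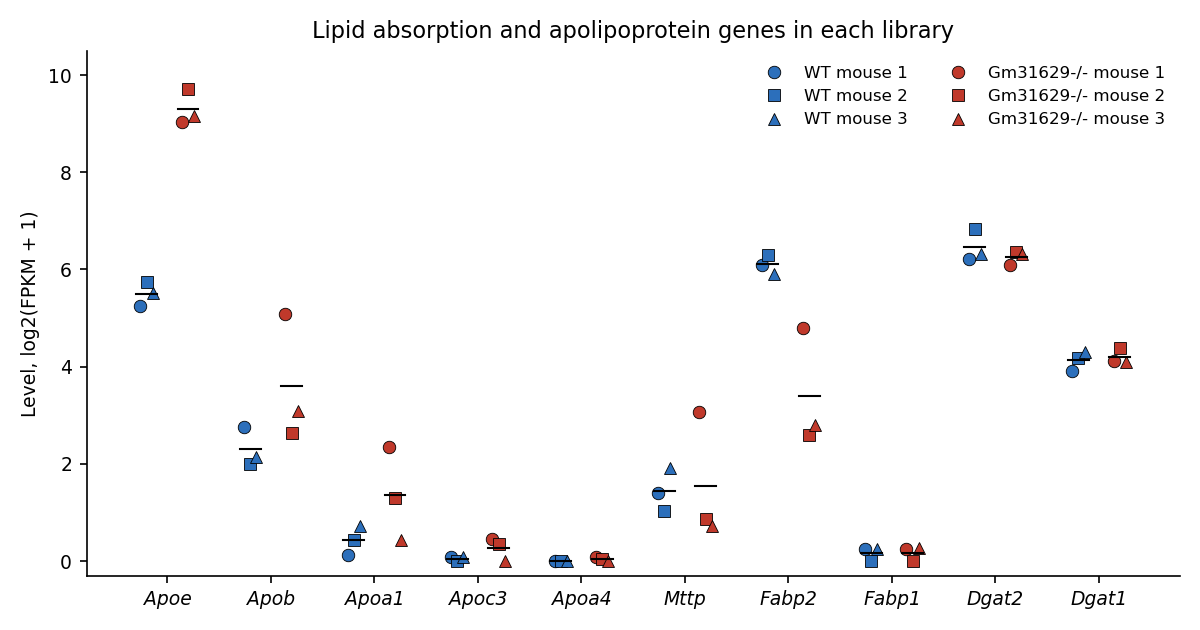
Levels of the 10 genes on the log2(FPKM + 1) scale in each of the 6 libraries, with a symbol shape for each mouse number and a line at the mean of the 3 log2 values of a group. Apoe lies near 9 in Gm31629-/- mice and between 5 and 6 in WT mice, and Gm31629-/- mouse 1 (circles) lies above the other two of its group for Apob, Apoa1, Mttp and Fabp2.

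Apoe, the cholesterol-exporting apolipoprotein, had the largest log2 fold change of the 7 tested members. Its level was 519.7, 836.3 and 568.6 FPKM in Gm31629-/- mice 1 to 3 and 37.0, 52.6 and 44.9 FPKM in WT mice 1 to 3. Every Gm31629-/- value was thus far above every WT value, with 20446 to 32995 fragments behind each of the former and 1462 to 2024 behind the latter. The group means were 641 ± 170 and 44.8 ± 7.81 FPKM (SD, n = 3 each), a ratio of 14.3. The log2 fold change was 3.79 (standard error 0.23, 95% interval 3.26 to 4.33, limma adjusted p = 0.000157). Without Gm31629-/- mouse 1 it was 3.93 (limma adjusted p = 0.000281), and without Gm31629-/- mouse 3 it was 3.86 (limma adjusted p = 0.000674).

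Macrophage markers moved with Apoe. Of the 12 markers, 11 were called higher, against 18.4% of all tested genes, and Mertk, a receptor for dying cells, was not. Of the 12, 4 passed the filter through Gm31629-/- mice, and all 4 were called higher. The summed level of the 12 was 604 to 1309 FPKM in Gm31629-/- mice and 68.9 to 88.4 FPKM in WT mice. It was led by Lyz2 (lysozyme, 404 ± 195 against 27.7 ± 5.59 FPKM) and C1qa (a complement subunit, 167 ± 65.75 against 13.3 ± 1.08 FPKM, SD, n = 3 each). Apoe amounted to 86.0%, 63.9% and 82.9% of that sum in Gm31629-/- mice 1 to 3 and to 53.7%, 59.5% and 63.3% in WT mice 1 to 3. The ratio of Apoe to these markers differed 1.32-fold between the group means and Apoe itself 14.3-fold. In the ratio, the groups were apart by a small margin. Summed markers of macrophages were 11.4-fold higher in Gm31629-/- mice, those of smooth muscle 51.5-fold and those of adipocytes 9.52-fold. Those of colon epithelium were 0.627 times the WT mean. The part of any of these cell types in the Apoe result was not tested.

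The neighbours of Apoe in its cluster were far lower. Apoc1, which also associates with lipoproteins, had 1.34 ± 0.613 FPKM in Gm31629-/- mice and 0.196 ± 0.115 FPKM in WT mice (SD, n = 3 each). Its adjusted p was 0.0117 by limma with a log2 fold change of 0.94, short of the fold threshold. Apoc1 passed the filter through its values in Gm31629-/- mice, with 3, 4 and 1 fragments in WT mice 1 to 3. No direction is therefore read from its p. Apoc2 and Apoc4 did not pass the filter, with at most 0.2 and 0.0857 FPKM in any library.

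Fabp2, the intestinal fatty acid binding protein of absorptive cells, moved the other way. It had 67.4, 78.2 and 59.0 FPKM in WT mice 1 to 3 and 26.8, 4.998 and 5.98 FPKM in Gm31629-/- mice 1 to 3. All WT values exceeded all Gm31629-/- values, and Gm31629-/- mouse 1 was 4.48-fold above the next mouse of its group. The means were 68.2 ± 9.61 and 12.6 ± 12.3 FPKM (SD, n = 3 each), 5.42-fold lower in Gm31629-/- mice. The log2 fold change was -2.71 (standard error 0.54, 95% interval -3.99 to -1.43, limma adjusted p = 0.0075). Without Gm31629-/- mouse 1 it was -3.41 (limma adjusted p = 0.000235).

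The epithelium that contains these cells was read from 15 markers, of which 5 were called lower, none higher and 10 not at all. Over all tested genes, 4.64% were called lower and 18.4% higher. Without Gm31629-/- mouse 1 or 2 or WT mouse 2, 3 of the 15 markers were called lower. The median log2 fold change was -0.51, and the sum was 7821 to 9360 FPKM against 12710 to 13890 FPKM in WT mice. The keratins Krt8 and Krt19, which form the cytoskeleton of columnar cells, had 0.486 and 0.504 times their WT means, and neither was called without Gm31629-/- mouse 1. Cdx2, a transcription factor of intestinal identity, fell by 3.13 on the log2 scale (limma adjusted p = 0.00847), beside a fall by 2.71 for Fabp2, and the difference between them was not tested. Epcam, an adhesion protein of epithelial cells, had 1109 ± 103.5 against 1104 ± 85.1 FPKM, and Tspan8, a membrane tetraspanin, 241 ± 8.87 against 171 ± 32.1 FPKM (SD, n = 3 each), and neither was called. Fabp2 was 0.508%, 0.563% and 0.464% of the summed epithelial markers in WT mice 1 to 3 and 0.343%, 0.0637% and 0.0639% in Gm31629-/- mice 1 to 3. After each library was rescaled to these markers, the log2 fold change of Fabp2 was -2.18 (limma adjusted p = 0.00848). An annotated antisense gene, 4933405D12Rik, overlaps Fabp2, and its level was 0.147 to 0.439 FPKM. The strand setting of the counting is not given in the sources used here, so reads of the pair cannot be told apart.

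**Figure D2:**
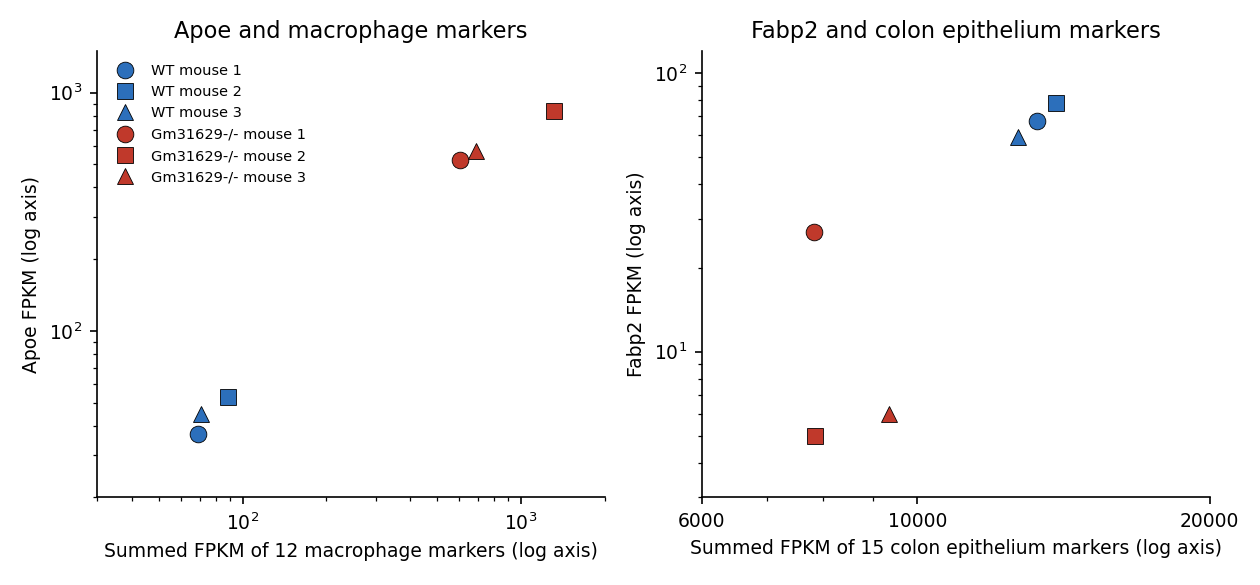
Apoe FPKM against the summed FPKM of 12 macrophage markers (left) and Fabp2 FPKM against that of 15 colon epithelium markers (right), 1 point per library, all axes logarithmic. The 3 Gm31629-/- libraries lie at the upper right for Apoe and at the lower left for Fabp2, where mouse 1 had 26.8 FPKM at about the same epithelial sum as mouse 2 (7821 and 7843 FPKM).

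Fabp1, the liver-type paralog that is abundant in the proximal small intestine, was near 0. Its level was 0.197, 0 and 0.197 FPKM in Gm31629-/- mice 1 to 3 and 0.196, 0 and 0.192 FPKM in WT mice 1 to 3, which is 2 fragments in each library where it was seen. No difference was detectable at this depth, and a value of 0 still allows up to 3 fragments. Of this pair of carriers, WT colon thus held Fabp2 at 68.2 FPKM and Fabp1 at 0.129 FPKM.

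Apob, the structural protein of chylomicrons, was uneven among Gm31629-/- mice. It had 32.9, 5.23 and 7.56 FPKM in Gm31629-/- mice 1 to 3 and 5.77, 2.97 and 3.41 FPKM in WT mice 1 to 3. Mouse 1 was 4.36-fold above the next Gm31629-/- mouse, and mouse 2 lay within the WT range. The means were 15.2 ± 15.4 and 4.05 ± 1.51 FPKM (SD, n = 3 each), and the log2 fold change was 1.31 (standard error 0.60, 95% interval -0.10 to 2.72, limma adjusted p = 0.115). The difference did not pass the test, and without mouse 1 the log2 fold change was 0.57 (limma adjusted p = 0.151). It did pass without Gm31629-/- mouse 2 (1.79, limma adjusted p = 0.0497), with the replicate number as a block (0.037) and after rescaling to the epithelial markers (1.78, 0.028). Replicate numbers did not pair the mice, so nothing is read from the fit with the block. The rescaling also moved the median log2 fold change of all tested genes from 0.15 to 0.57.

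Mttp, which encodes the lipid-loading partner of apolipoprotein B, followed a similar pattern. Its level was 7.43, 0.812 and 0.649 FPKM in Gm31629-/- mice 1 to 3 and 1.63, 1.04 and 2.75 FPKM in WT mice 1 to 3. Mouse 1 was the highest of the 6 libraries, and the other two Gm31629-/- mice were the lowest. The log2 fold change was 0.11 (standard error 0.62, 95% interval -1.34 to 1.56, limma adjusted p = 0.899), and without mouse 1 it was -0.65 (limma adjusted p = 0.0999). Trmt10a and Gm43691 overlap Mttp on the other strand, with levels up to 0.53 and 0.078 FPKM.

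Apoa1, the main protein of high-density lipoproteins, was low in every library. It had 4.09, 1.45 and 0.352 FPKM in Gm31629-/- mice 1 to 3 and 0.0875, 0.359 and 0.646 FPKM in WT mice 1 to 3, with 2 to 93 fragments behind these values. Mice 1 and 2 of the Gm31629-/- group lay above the WT range and mouse 3 within it. The log2 fold change was 0.93 (standard error 0.45, 95% interval -0.13 to 1.99, limma adjusted p = 0.134). Without Gm31629-/- mouse 1 it was 0.44 (limma adjusted p = 0.281), and without mouse 3 it was 1.39 (limma adjusted p = 0.0281).

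The other genes of the chromosome 9 cluster were nearly silent. Apoc3, an inhibitor of lipoprotein lipase, had 7, 5 and 0 fragments in Gm31629-/- mice 1 to 3 and 1, 0 and 1 in WT mice 1 to 3. Apoa4, a chylomicron protein induced by fat in the small intestine, had 2, 1 and 0 fragments in Gm31629-/- mice and 0 in each WT mouse. Neither passed the filter, and differences of this size are at or near the 3 fragments that a count of 0 allows. Apoa5 was listed at no more than 0.0661 FPKM in any library.

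Gm31629-/- mouse 1 was over 2-fold above both other mice of its group for 4 of the 7 tested members (Apoa1, Apob, Mttp and Fabp2), a comparison chosen after the values were seen. Among these, Apoa1 was tested only because of its values in this group. Over all tested genes, 4.06% met this condition in that mouse. In each of the other 5 libraries, 0 of the 7 members did. This was also the library with Y-linked transcripts, and the part of sex or of the colon segment sampled was not tested.

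**Figure D3:**
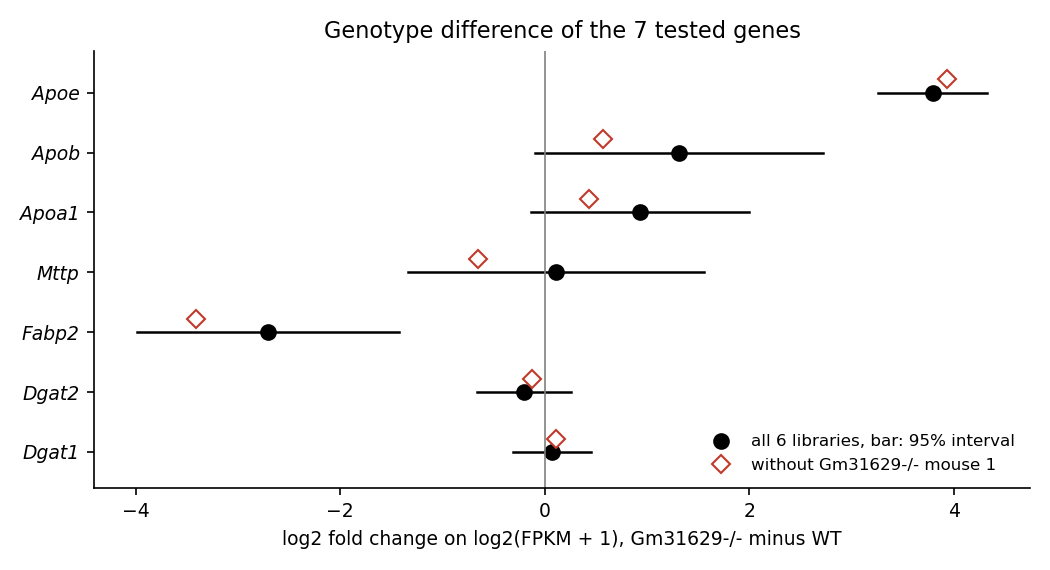
Log2 fold changes of the 7 tested genes, Gm31629-/- minus WT, with 95% intervals from limma (black), and the value without Gm31629-/- mouse 1 (open diamonds). The intervals of Apoe (3.26 to 4.33) and Fabp2 (-3.99 to -1.43) leave out 0, and that of Mttp is wide, with the value moving from 0.11 to -0.65 without mouse 1.

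The enzymes that complete triglyceride synthesis showed no call. Dgat2, which acts at the endoplasmic reticulum and on lipid droplets, had 67.6, 81.3 and 78.3 FPKM in Gm31629-/- mice 1 to 3 and 73.0, 113.2 and 79.3 FPKM in WT mice 1 to 3. The groups overlapped, and the log2 fold change was -0.20 (standard error 0.20, 95% interval -0.66 to 0.26, limma adjusted p = 0.434). Dgat1, the enzyme of fat absorption in enterocytes, had 16.4, 19.7 and 16.1 FPKM in Gm31629-/- mice 1 to 3 and 14.0, 17.1 and 18.7 FPKM in WT mice 1 to 3. Its log2 fold change was 0.068 (standard error 0.16, 95% interval -0.32 to 0.45, limma adjusted p = 0.757). The interval bounds the difference of Dgat1 to less than 0.5 on the log2 scale in these libraries as deposited, and rescaling to the epithelial markers gave 0.60 (limma adjusted p = 0.0516) for Dgat1 and 0.36 for Dgat2.

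Levels can be ordered because FPKM is per length. In WT mice the order was Dgat2 (88.5 ± 21.6 FPKM), Fabp2 (68.2), Apoe (44.8), Dgat1 (16.6), Apob (4.05), Mttp (1.81) and Apoa1 (0.364), with Fabp1, Apoc3 and Apoa4 below 0.2. Dgat2 and Fabp2 overlapped, as did Apoa1, Fabp1, Apoc3 and Apoa4 with the next gene in the order, while each other neighbouring pair was apart in the 3 mice. In Gm31629-/- mice Apoe stood first at 641 FPKM, followed by Dgat2 at 75.7 and Dgat1 at 17.4, these being apart from each other, and from Dgat1 downward every neighbouring pair overlapped.

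Around these genes, 84 other genes of lipid absorption and lipoprotein handling were listed in 9 groups by step, of which 77 were tested. Of these, 16 were called higher and 9 lower, with a median log2 fold change of 0.061 against 0.15 for all tested genes. Over all tested genes, 18.4% were called higher and 4.64% lower, the background for the counts of each group and marker list below. The share of the 77 called higher was near that background, and the share called lower was above it. After rescaling by the median ratio the split was 12 higher and 16 lower, and after rescaling to epithelial markers it was 23 and 4. Without Gm31629-/- mouse 1 it was 18 and 10, and without Gm31629-/- mouse 3 it was 16 and 13. Of the 77, 11 had a WT mean under 0.5 FPKM and passed the filter through Gm31629-/- mice, and 5 of the 16 higher calls were among them (Abca1, Apod, Cd36, Gpihbp1 and Lcat), so counts of higher genes lean on genes that had to be high there.

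At the cell surface, 3 of 8 tested genes of uptake and efflux were called higher and 1 lower. Cd36, a fatty acid translocase, rose from 0.167 ± 0.0963 to 11.8 ± 5.97 FPKM (SD over 3 mice; log2 fold change 3.37, limma adjusted p = 0.000467). Abca1, which exports cholesterol onto apolipoproteins, rose by 2.18 on the log2 scale (limma adjusted p = 0.00112). Slc27a4, a fatty acid transport protein of enterocytes, fell from 43.7 ± 10.3 to 16.7 ± 3.89 FPKM (log2 fold change -1.33, limma adjusted p = 0.00487), and after rescaling to epithelial markers its change was -0.79, short of the fold threshold. The third higher gene was the sterol exporter Abcg5, whose call was lost without WT mouse 3 (limma adjusted p = 0.0691), and by fold without Gm31629-/- mouse 3 (0.87) and with the median ratio (0.96). Cd36 and Abca1 are 2 of the genes that passed the filter through Gm31629-/- mice.

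In the cell, 1 of 8 genes of lipid binding and acyl-CoA formation was called, and it was higher. This was Acsl4, an acyl-CoA synthetase that prefers arachidonate (8.29 ± 3.30 against 0.93 ± 0.316 FPKM, SD over 3 mice; log2 fold change 2.22, limma adjusted p = 0.00118). Among 13 tested genes of re-esterification, 1 was called lower and none higher. It was Mogat2, the monoacylglycerol acyltransferase of fat absorption, with 1.35 ± 0.694 against 4.96 ± 1.80 FPKM (log2 fold change -1.34, limma adjusted p = 0.0134). Its adjusted p was 0.0584 without WT mouse 3 and 0.0549 after rescaling to epithelial markers.

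For lipid droplets, 2 of 8 genes were called higher and none lower. Plin2, the droplet coat protein, rose from 47.9 ± 3.901 to 119 ± 26.6 FPKM (SD over 3 mice; log2 fold change 1.28, limma adjusted p = 0.00212). Lipe, the hormone-sensitive lipase of fat cells, rose by 1.403 on the log2 scale (limma adjusted p = 0.0153), a call that was lost without WT mouse 1 or WT mouse 2 (0.0525 and 0.0534).

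Among 8 genes of chylomicron assembly, 2 were called lower and 1 higher. Pla2g12b, which is needed for lipid loading of lipoproteins, fell from 5.22 ± 0.654 to 0.598 ± 0.618 FPKM (SD over 3 mice; log2 fold change -2.03, limma adjusted p = 0.00182). P4hb, the protein disulfide isomerase that pairs with MTTP, fell from 431 ± 54.4 to 191.5 ± 39.9 FPKM (log2 fold change -1.18, limma adjusted p = 0.00436), and its adjusted p was 0.0528 after rescaling to epithelial markers. Apobec1, the enzyme that edits Apob mRNA so that the short form is made, rose from 20.9 ± 5.48 to 58.8 ± 13.3 FPKM (log2 fold change 1.45, limma adjusted p = 0.00307).

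Of 9 other apolipoprotein genes, 4 were tested, and 2 of these were called higher. Of the 4, 3 (Apoa2, Apoc1 and Apod) passed the filter through Gm31629-/- mice, so no direction is read from this count. Clu, or apolipoprotein J, a secreted chaperone, rose from 4.98 ± 0.773 to 79.4 ± 7.10 FPKM (SD over 3 mice; log2 fold change 3.75, limma adjusted p = 7.73e-05). Apod, a lipocalin, rose from 0.154 ± 0.0987 to 20.9 ± 17.9 FPKM (log2 fold change 3.91, limma adjusted p = 0.002), with 41.1, 15.2 and 6.57 FPKM in Gm31629-/- mice 1 to 3.

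Of 9 genes of lipoprotein lipolysis and receptors, 5 were called higher, and 3 without Gm31629-/- mouse 2, WT mouse 1 or WT mouse 3 or with the median ratio. Angptl4, an inhibitor of lipoprotein lipase, rose from 0.951 ± 0.626 to 17.3 ± 7.16 FPKM (SD over 3 mice; log2 fold change 3.19, limma adjusted p = 0.00107). Pltp, a phospholipid transfer protein of plasma, rose by 2.54 on the log2 scale (limma adjusted p = 0.00198).

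Of 13 genes listed as transcriptional regulators of this route, 4 were called lower and none higher, with a median log2 fold change of -0.93. Ppara and Pparg, receptors for fatty acids, fell by 2.27 and 2.24 on the log2 scale (limma adjusted p = 0.00126 and 0.000657). Hnf4a, a regulator of absorptive cell genes named here after its values were seen, fell by 1.203 (limma adjusted p = 0.00253). It had 127, 104 and 157 FPKM in Gm31629-/- mice 1 to 3 and 278, 311 and 296 FPKM in WT mice 1 to 3, and its groups did not overlap. After rescaling to epithelial markers, 2 of the 13 were called lower and 1 higher, and Hnf4a was no longer called (log2 fold change -0.64). With the median ratio 8 were called lower, and without Gm31629-/- mouse 3, 7, and without WT mouse 2, 6.

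Of 6 genes of luminal lipid digestion (lipases and colipase), 2 were called higher. Pnliprp2, a lipase related to pancreatic lipase, rose from 2.82 ± 1.45 to 61.8 ± 36.3 FPKM (SD over 3 mice; log2 fold change 3.89, limma adjusted p = 0.00143). Clps, the colipase gene, had 92.9 ± 126.5 against 6.33 ± 2.17 FPKM (limma adjusted p = 0.0497), and its call was lost without Gm31629-/- mouse 2 (0.0567), without any one WT mouse (0.091 to 0.131) and with the median ratio (0.0674). Pnlip had 197.6 FPKM in Gm31629-/- mouse 3 and at most 0.0366 FPKM elsewhere. Pnliprp2 had 24.1, 96.65 and 64.65 FPKM in Gm31629-/- mice 1 to 3, and Clps 14.9, 24.9 and 238.9 FPKM. Pnliprp2 was thus highest in mouse 2, where Pnlip was 0, and the source of its transcripts was not tested. Of the 6 genes, 4 passed the filter through Gm31629-/- mice. Without mouse 3, 2 of 6 were still called.

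**Figure D4:**
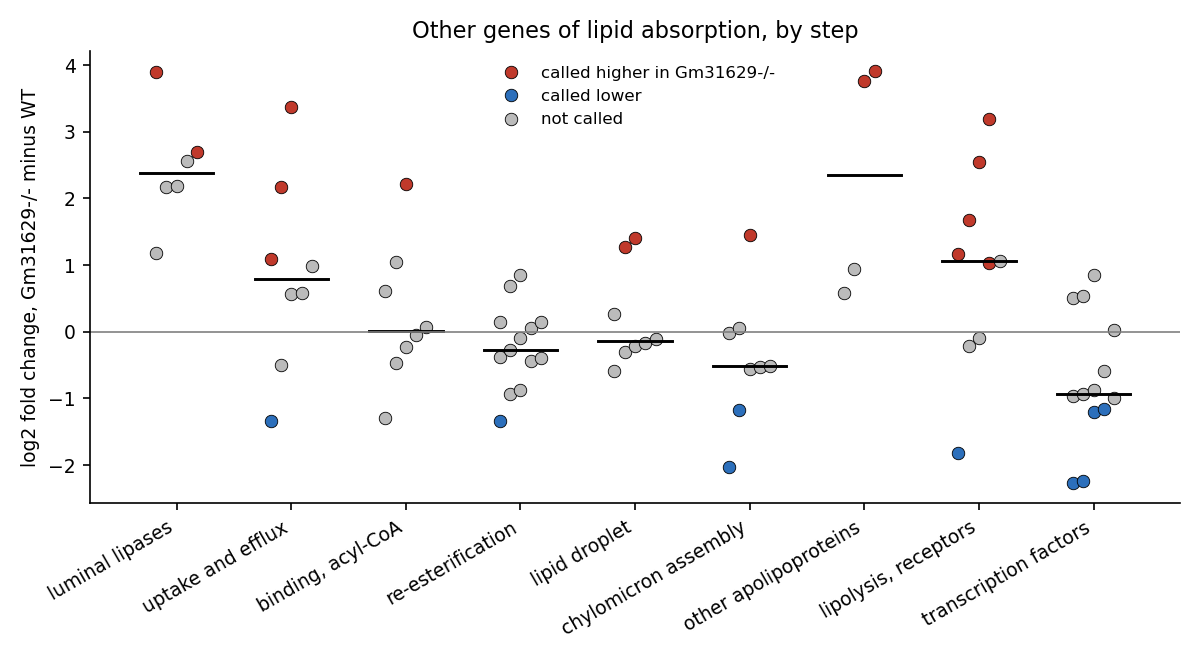
Log2 fold changes (Gm31629-/- minus WT) of the 77 tested genes of the 9 groups, 1 point per gene, red where called higher, blue where called lower and grey where not called, with a line at each group's median. Calls are mixed in direction for uptake and efflux (3 higher, 1 lower), while the 4 called transcription factors were lower.

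Markers of other cell types were read in the same libraries. Of 10 absorptive colonocyte markers, 3 were called lower and none higher, which became 0 lower without WT mouse 3, 5 lower without Gm31629-/- mouse 1, and 3 lower and 3 higher without Gm31629-/- mouse 2 or after epithelial rescaling. Their sum was 2614 to 7227 FPKM in Gm31629-/- mice and 8472 to 10580 FPKM in WT mice. Car1, a carbonic anhydrase, fell by 2.13 on the log2 scale (limma adjusted p = 0.0126, and 0.0504 without WT mouse 3), and Guca2a, the guanylin gene, did not pass (limma adjusted p = 0.202). Others had higher means in Gm31629-/- mice without being called, namely Car4 (3.12-fold), Slc26a3 (2.84-fold), Aqp8 (2.18-fold) and Ceacam20 (1.52-fold, limma adjusted p = 0.0356, groups apart). Of 12 small intestinal enterocyte markers, 8 were tested, 1 was called higher (none without WT mouse 1 or 2) and 1 lower (2 without Gm31629-/- mouse 1 or WT mouse 1), and Lct (lactase) was at most 0.0594 FPKM. The lower one, Alpi, the intestinal alkaline phosphatase, had 8.23, 0.51 and 0.722 FPKM in Gm31629-/- mice 1 to 3 and 49.8 ± 7.91 FPKM in WT mice (SD, n = 3). Slc5a1, the sodium-glucose transporter, had a log2 fold change of -0.56 (limma adjusted p = 0.048).

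Adipocyte markers, whose cells also express Dgat2, Cd36 and Lipe, were called higher in 6 of 7 tested, in 4 without Gm31629-/- mouse 2, WT mouse 2 or WT mouse 3, and in 3 without WT mouse 1. Of the 7, 3 passed the filter through Gm31629-/- mice. Their sum was 209.1, 516.7 and 145.0 FPKM in Gm31629-/- mice 1 to 3 and 13.7, 20.02 and 57.7 FPKM in WT mice 1 to 3, led by Cfd (adipsin) and Cidec (a droplet protein). Hepatocyte markers were tested for 4 of 10 genes, with 1 called higher (Cyp2e1, which fat also expresses, not called without Gm31629-/- mouse 2 or 3 or WT mouse 1 or 2, adjusted p 0.0519 to 0.075) and Tat not called (limma adjusted p = 0.053), and Alb (albumin) was at most 0.116 FPKM, so the defining liver transcript was near 0. Of 11 acinar markers, 9 passed the filter through Gm31629-/- mice, and none of these was called. The 1 called higher was Sycn, whose groups overlapped. Sycn was not called without Gm31629-/- mouse 1 (0.074) or 3 (0.0939) or WT mouse 2 (0.0881) or 3 (0.102). Acta2 and Myl9, contractile proteins of smooth muscle, rose by 6.04 each on the log2 scale (limma adjusted p = 0.000151 and 0.000204). The part of these cell types in the results above was not tested.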

How the data were processed

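RNA-Seq libraries of 3 Gm31629-/- and 3 WT mice were analyzed from 1 deposited table. The authors deposited FPKM values, which are fragments scaled by gene length and library depth. The submitters' processing notes name HISAT2 2.1.0, HTSeq 0.6.0 and GRCm38. The annotation release is not given in the sources used here, and DEGseq, which the methods name, needs counts and was not run. Groups came from the genotype labels.

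Symbols, coordinates and exon lengths came from GENCODE M21 (27488 of 27546 identifiers matched). Depth was found from the step of 1 fragment. By this step, 96.3% to 97.2% of the values of 20 fragments or fewer lay within 0.1 of an integer. Intervals and limits cover counting or replicate error only, and where mice shared an extraction the p-values measure technical spread.

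Genes were tested with limma 3.58.1 under R 4.3.3 (a linear model with trended eBayes, pseudocount 1, minimum mean FPKM 0.5), after a check on simulated data. Alternatives were other filters (none, or a minimum of 5), a pseudocount of 0.1, 3 rescalings, no trend, a replicate block, leaving out each library, the adjusted p alone, and voom on recovered fragments. No library repeated another (chi-square of 32.1 to 143 per gene between mice of a genotype). The members, the 9 pathway groups, the 8 marker lists and the tests were chosen with earlier results of these data known. Named were every member, the 2 called genes with the largest change per direction in each pathway group, the 2 most abundant genes of each marker list, and Abcg5, Hnf4a, Pnlip, Gpihbp1, Lcat, Apoa2, Apoc1, Mertk, Lct, Alb, Cdx2, Epcam, Tspan8, Car4, Slc26a3, Aqp8 and Ceacam20, which were chosen after their values were seen. Some named genes are not reported here. Figures were drawn with matplotlib 3.10.9.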

Additional observations from a re-analysis of the deposited data

How the results depend on the processing

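Apoe stayed called higher and Fabp2 called lower in all 15 alternative fits run for each, with log2 fold changes from 3.59 to 4.35 and from -3.41 to -2.18 and limma adjusted p up to 0.00255 and 0.0298. Between 2 and 3 members were called. Apob was called after rescaling to epithelial markers (1.78), with the replicate block (1.31) and without Gm31629-/- mouse 2 (1.79), and Apoa1 without Gm31629-/- mouse 3 (1.39). For Mttp the sign turned with a pseudocount of 0.1 (-0.042), with voom (-0.087), and among the fits without 1 library (-0.65 to 0.52), where it was negative without Gm31629-/- mouse 1 or WT mouse 2 (-0.099). For Dgat1 it turned with the median ratio (-0.094) and without Gm31629-/- mouse 2 (-0.021) or WT mouse 1 (-0.045, range -0.045 to 0.15), and for Dgat2 with epithelial rescaling (0.36). The 25 calls among pathway genes became 14 with a mean FPKM of at least 5, where fewer genes are tested, and 41 by adjusted p alone, and the 3384 calls over all genes became 1449 and 6376. Leaving out 1 library gave 21 to 29 pathway calls, 32 to 41 marker calls and 2798 to 3572 calls in all. Of all calls, 79.9% were higher, and after epithelial rescaling 94.2% were, as the median over all genes moved from 0.15 to 0.57 (0.017 with the median ratio). The replicate numbers did not pair the mice. Deviations of same-numbered mice correlated at 0.036, -0.11 and 0.014, and with the replicate block 3 members, 24 pathway genes and 40 markers were called, against 2, 25 and 40 without it, and 3357 against 3384 over all genes. Depth limits Apoa4, Apoc3 and Fabp1, with at most 7 fragments per library.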

Other observations

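The values here were chosen after the data were seen and are given without explanation. Of the 77 tested pathway genes, 8 (10.4%) were over 2-fold higher in Gm31629-/- mouse 1 than in both other mice of its group, against 4.06% of all tested genes. Beside Apod, Pla2g12b, Ppara, Slc27a2 and Vldlr, these were Rbp2, which encodes a retinol carrier of absorptive cells (62.3, 4.51 and 23.5 FPKM in Gm31629-/- mice 1 to 3), Creb3l3, a transcription factor of lipoprotein genes (18.2, 4.69 and 8.63 FPKM), and Ppargc1a, a coactivator of oxidative metabolism (11.6, 1.12 and 3.48 FPKM). Slc6a19, a neutral amino acid transporter of the small intestine, had 5.92, 0.552 and 0.152 FPKM in the same mice and 0.483 ± 0.0727 FPKM in WT mice (SD, n = 3). Cdx2, a transcription factor of intestinal identity, had 36.2 ± 39.8 FPKM in Gm31629-/- mice and 224 ± 20.7 FPKM in WT mice (SD over 3 mice; log2 fold change -3.14, limma adjusted p = 0.00847).

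Over the 6 libraries, the tested genes most alike to Fabp2 by Pearson correlation of log2(FPKM + 1) were Gm3054 (0.999), Cdx2 (0.996) and Idh1 (0.995). Those most alike to Apoe were Adamts10 (0.9996), Dtx3 (0.9992) and Islr (0.9992), and to Apob Ccser1 (0.989), Zfp292 (0.984) and Xrn1 (0.983). For Dgat1 they were Tmem268 (0.995), Klc2 (0.964) and Chmp7 (0.963), and for Dgat2 Lppos (0.98), Cblc (0.966) and Snx4 (0.953). These correlations describe 6 points in 2 genotype groups, which share the group difference and the depth of each library, and they were the highest of 14656 values each.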
